A study of Homo sapiens with 30 samples.

Results

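The transcriptional programme driven by ATF4 was examined in diffuse large B-cell lymphoma (DLBCL) cell lines treated with the PI3Kβ/δ inhibitor AZD8186. It was represented by 10 genes of the 21112 in the files, taken by exact symbol match: ATF4, ATF5, DDIT3, DDIT4, TRIB3, ASNS, CHAC1, SESN2, CEBPB and CEBPG. RNA sequencing had been carried out on 30 libraries from 4 lines, treated with 0.5 µM AZD8186 or with DMSO as the solvent control. The lines K422 and HT belong to the germinal center B-cell-like (GCB) subtype, and TMD8 and OCI-Ly10 to the activated B-cell-like (ABC) subtype. The study describes all 4 lines as sensitive to AZD8186, unlike most DLBCL lines of its panel. K422, HT and OCI-Ly10 were sampled at 6, 12, 18 and 24 h, and TMD8 at 6, 18 and 24 h, with 1 library for each line, treatment and time. This gave 8 pairs of libraries in GCB and 7 in ABC lines, each pair made of the AZD8186 and DMSO libraries that share a line and a time. The sample titles name DMSO, whereas the design text of the series calls the controls untreated. Each subtype rests on 2 established lines, and the replicates within a line are its time points. No source states separate cultures, so p-values measure the spread between these libraries only, and a difference between subtypes cannot be told apart from a difference between these particular lines. Per the study's methods OCI-Ly10 and TMD8 were grown in Iscove's medium, while K422 and HT are not among its exceptions to RPMI medium. The culture medium therefore differed between the subtypes too, and its part cannot be told apart from that of subtype.

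ATF4 is a basic leucine zipper transcription factor of the integrated stress response. When stress kinases phosphorylate the translation factor eIF2α, most protein synthesis slows while ATF4 mRNA is translated more, and ATF4 then switches on genes of amino acid supply and redox balance as well as genes that feed back on growth signaling. In growing cells mTORC1, which acts downstream of PI3K, also raises ATF4. ATF4 binds DNA as a dimer with C/EBP proteins at C/EBP-ATF composite elements.

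Total counts per library lay between 15820230 and 23579029. Ribosomal protein genes took 11.3 to 25.8% of the counts and ribosomal RNA genes 0.69 to 4.35%, with the highest ribosomal RNA share in the TMD8 library with AZD8186 at 6 h. B-cell markers were present in all lines, with CD79A between 561 and 1707 TPM, CD79B between 152 and 1494 TPM, PAX5 between 17.4 and 71.3 TPM and MS4A1 between 5.48 and 279.96 TPM over the libraries. The ABC markers IRF4, BATF, CCND2 and TNFRSF13B summed to at most 0.27 TPM in the GCB lines and to 528 to 1682 TPM in the ABC lines. Their sum was 528 to 846 TPM with AZD8186 and 901 to 990 TPM with DMSO in TMD8. In OCI-Ly10 it was 955 to 1191 TPM with AZD8186 and 1441 to 1682 TPM with DMSO, and neither line had any overlap. Of 4 GCB markers, MME, BCL6 and MYBL1 were higher in every GCB library than in any ABC library, whereas LMO2 went against the labels, at 5.16 to 35.4 TPM in TMD8, 0.19 to 0.66 TPM in K422 and 0 in HT. The summed GCB markers lay at 333 to 433 TPM with AZD8186 and 206 to 251 TPM with DMSO in K422, and at 253 to 334 TPM with AZD8186 and 201 to 236 TPM with DMSO in HT. In K422, 2 of 5 T-cell markers, CD3D and CD3G, were found at 61.6 to 116 TPM and 1 of 4 stroma markers, DCN, at 98.1 to 187 TPM. The T-cell sum in K422 was 167 to 182 TPM with AZD8186 and 162 to 184 TPM with DMSO, and the stroma sum, all of it DCN, was 154 to 187 TPM with AZD8186 and 98.1 to 127 TPM with DMSO, without overlap. Over the GCB lines DCN rose by 0.67 on the log2 scale (adjusted p = 0.000192, edgeR) and CD3G by 0.32 (adjusted p = 0.00195), while CD2, COL1A1, COL1A2 and PDGFRB were at 0 in K422. DCN was at only 0.17 to 0.37 TPM in HT, so its rise rests on K422. The part of these markers in the results was not tested.

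The composite element has a core of TGATGNAA, where N is any base (TTNCATCA on the other strand). This core of 8 bases was searched on both strands in the 250 bases before each RefSeq start site (GRCh38.p14). Some of these windows lie within the gene as GENCODE 29 draws it, which starts further upstream, so they can hold transcribed bases. It was found for 3 of the 10 genes, ASNS, CHAC1 and CEBPG, that is before 3 of their 19 start sites in all (15.8%). Over all genes in the promoter table, 1104 of 35116 start sites (3.14%) had it, and 7 of 36 other ATF4 targets did (19.4% of genes, against 3.89% of all genes). The 3 matches are shown because they are the only places in these windows where the binding core of ATF4 can be read. Each is given on the strand of its gene, with the core in capitals, in a stretch of 30 bases. They lie at chr7:97872458-97872487 on the minus strand for ASNS, at chr15:40953251-40953280 on the plus strand for CHAC1 and at chr19:33374060-33374089 on the plus strand for CEBPG, all 3 inside the GENCODE 29 bounds of their genes.
ASNS: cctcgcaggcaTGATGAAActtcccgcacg
CHAC1: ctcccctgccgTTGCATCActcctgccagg
CEBPG: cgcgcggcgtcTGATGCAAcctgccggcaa
The first base of the core stands 68 bases before the start site in ASNS, 209 in CHAC1 and 42 in CEBPG. A match is only a stretch of letters, and its absence before the other 7 genes says nothing about whether ATF4 binds there.

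Under DMSO, the 10 genes ranged widely in level per transcript length (TPM). ATF5 and ATF4 led in all 4 lines. ATF5 averaged 202 ± 31.6 TPM in K422, 149 ± 18.1 in HT, 1462 ± 209 in TMD8 and 511 ± 26.5 in OCI-Ly10 (SD over 4 time points, 3 in TMD8). ATF4 averaged 123 ± 25.2 TPM in K422, 266 ± 20.3 in HT, 162 ± 28.5 in TMD8 and 324 ± 45.4 in OCI-Ly10. ASNS came next in every line at means of 38.7 to 93.0 TPM. CHAC1 was the lowest in K422, at 0.593 ± 0.365 TPM, in HT and in OCI-Ly10, and SESN2 was the lowest in TMD8, at 2.10 ± 0.831 TPM.

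**Figure D1:**
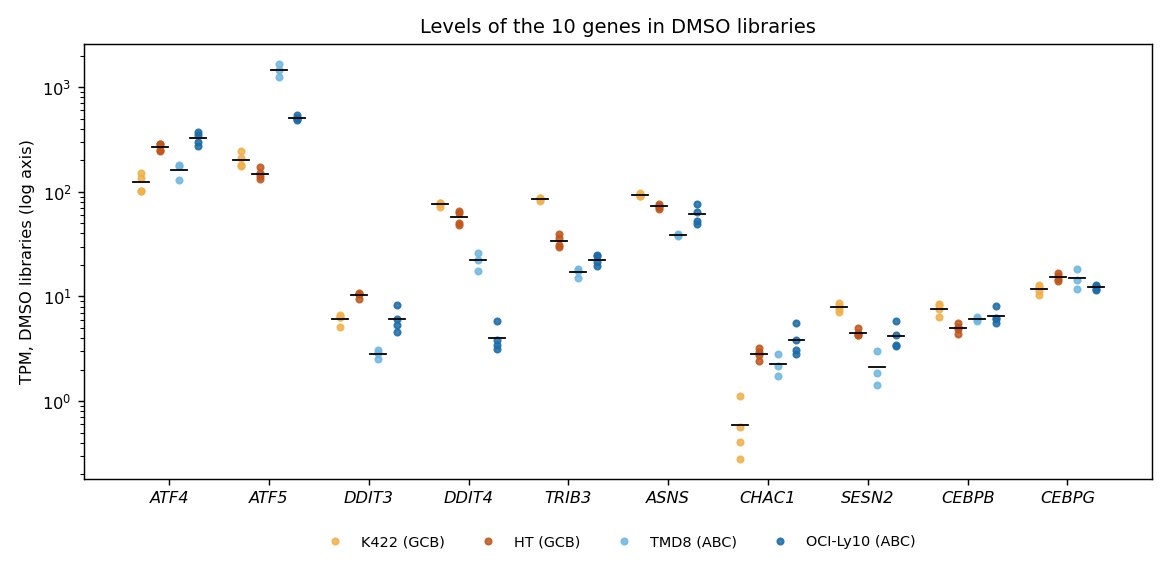
TPM of the 10 genes in the DMSO libraries (log axis), with 1 point per library and a black line at the mean of each cell line (4 libraries, 3 in TMD8). DDIT4 and ATF5 are the genes that differ most between lines: DDIT4 averages 75.8 TPM in K422 and 4.04 in OCI-Ly10, and ATF5 averages 1462 TPM in TMD8 and 149 in HT.

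The lines were then ordered gene by gene on CPM (a gene's share of its library's counts, scaled by TMM), with neighbours in the order compared by edgeR's quasi-likelihood test on the 15 DMSO libraries and Benjamini-Hochberg adjustment over all genes. Most genes of these lines differed anyway: 68.0% of 12596 genes were called between K422 and HT and 69.3% between TMD8 and OCI-Ly10, so nothing is read from the 10 and 9 of the 10 genes called there. Between the subtypes 9 of the 10 genes were called for TMD8 against K422 (background 77.1%), 9 for TMD8 against HT (76.4%), 8 for OCI-Ly10 against K422 (80.9%) and 7 for OCI-Ly10 against HT (80.6%). The orders are therefore given as levels.

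DDIT4, which encodes REDD1, an inhibitor of mTORC1, had the steepest order. It stood at 80.3 ± 3.76 CPM in K422 (here and below SD over 4 libraries, 3 in TMD8), 65.9 ± 9.30 in HT, 31.4 ± 5.77 in TMD8 and 5.64 ± 1.38 in OCI-Ly10, each neighbour differing from the next (adjusted p of 0.00618 or lower). The gap of 14.2-fold between the ends was the largest among the 10 genes on this scale. ATF5, a bZIP factor related to ATF4, was instead higher in the ABC lines, with 2581 ± 735 CPM in TMD8, 875 ± 60.2 in OCI-Ly10, 259 ± 28.5 in K422 and 211 ± 29.8 in HT, again with every neighbour apart (adjusted p of 0.0124 or lower). Its DMSO libraries lay between 186 and 301 CPM in the GCB lines and between 832 and 3332 CPM in the ABC lines.

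ATF4 itself was at 357 ± 59.6 CPM in OCI-Ly10, 241 ± 15.9 in HT, 178 ± 18.3 in TMD8 and 102 ± 15.4 in K422, with all neighbours different (adjusted p of 0.000577 or lower). TRIB3, a pseudokinase induced by ATF4 that binds AKT, had another order, with 133 ± 5.04 CPM in K422, 57.1 ± 6.90 in HT, 45.2 ± 2.39 in OCI-Ly10 and 34.8 ± 6.78 in TMD8 (adjusted p of 0.00571 or lower). K422 had the lowest ATF4 and the highest TRIB3 mRNA of the 4 lines. CHAC1, an enzyme that breaks down glutathione, had the same order of lines as ATF4: 4.59 ± 1.34 CPM in OCI-Ly10, 2.79 ± 0.305 in HT, 2.69 ± 0.490 in TMD8 and 0.548 ± 0.351 in K422, where HT and TMD8 did not differ beyond their spread (adjusted p = 0.647).

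The other 5 genes spread less, by 1.56- to 2.99-fold. DDIT3, which encodes the factor CHOP, was highest in HT (5.42 ± 0.351 CPM) and lowest in TMD8 (1.81 ± 0.0723 CPM), with OCI-Ly10 and K422 between them and not separated (adjusted p = 0.0687). ASNS, asparagine synthetase, and SESN2, which restrains mTORC1 when leucine is scarce, were both highest in K422 (122 ± 6.65 and 18.2 ± 1.72 CPM) and lowest in TMD8 (68.4 ± 11.3 and 6.32 ± 1.55 CPM), and OCI-Ly10 and HT were not separated for either gene (adjusted p = 0.877 for ASNS and 0.30 for SESN2). Of the C/EBP factors, CEBPB was separated only between K422 (10.0 ± 1.09 CPM) and HT (7.18 ± 0.816 CPM, adjusted p = 0.00179) among neighbours. CEBPG was at 49.2 ± 3.56 CPM in TMD8, 41.8 ± 2.17 in HT, 40.4 ± 2.18 in OCI-Ly10 and 29.1 ± 1.30 in K422, with HT and OCI-Ly10 not separated (adjusted p = 0.578). On TPM the order of the lines changed for DDIT3, ASNS, SESN2, CEBPB and CEBPG.

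AZD8186 lowered 7 of the 10 mRNAs in GCB and 5 in ABC lines, and 3 of them, ATF4, TRIB3 and ASNS, fell in both (background 8.29% of 10203 genes tested in both). In the GCB lines 7 of 10 fell and 1, SESN2, was higher, against a background of 23.5% of 10965 genes called lower and 25.9% called higher, and the median log2 fold change was -0.33 over the 10 genes and 0.02 over all genes. In the ABC lines 5 of 10 fell (background 13.8% of 11419 genes) and none was called higher (background 15.3%), with medians of -0.28 and 0.01. For the ABC lines the count of 0 higher genes came from edgeR, with 1 gene, DDIT4, higher at an unadjusted p under 0.05 and called higher with the pair of line and time as a block (adjusted p = 0.032). ATF4 and TRIB3 had a ratio below 0 in 15 of 15 pairs. Of 12910 genes 4.04% were below 0 in every pair.

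**Figure D2:**
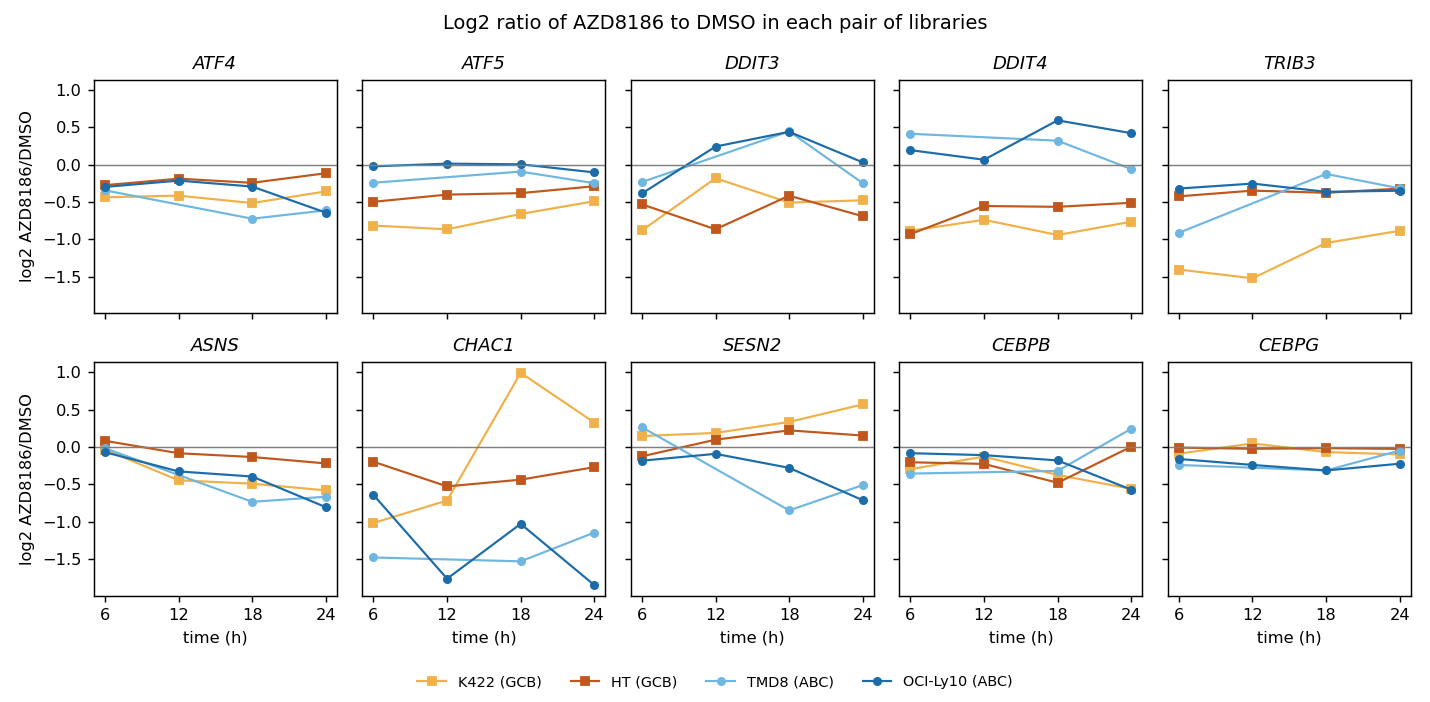
Log2 ratio of AZD8186 to DMSO (CPM, prior count of 2) against time in hours, 1 panel per gene and 1 line per cell line, with squares for K422 and HT (GCB) and circles for TMD8 and OCI-Ly10 (ABC). ATF4 and TRIB3 lie below 0 in all 15 pairs, DDIT4 lies below 0 in all 8 GCB pairs and above 0 in 6 of 7 ABC pairs, and ASNS starts near 0 at 6 h in every line.

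ATF4 (chr22:39519695-39522685, plus strand, GENCODE 29 on GRCh38) fell in all 4 lines. In K422 it was at 64.9, 68.2, 85.0 and 82.5 CPM with AZD8186 at 6, 12, 18 and 24 h, against 87.9, 90.9, 122 and 106 CPM with DMSO. In TMD8 it was at 129, 120.4 and 112 CPM with AZD8186 at 6, 18 and 24 h, against 164, 199 and 171 CPM with DMSO. In both lines every AZD8186 library was below every DMSO library, whereas the groups overlapped in HT (191 to 227 CPM with AZD8186, 225 to 260.5 CPM with DMSO) and OCI-Ly10 (238 to 353 CPM with AZD8186, 301 to 434 CPM with DMSO). The log2 fold change was -0.33 (SE 0.05, adjusted p = 0.000119, edgeR) in GCB and -0.45 (SE 0.09, adjusted p = 0.00199) in ABC lines, or -0.45 in K422, -0.22 in HT, -0.56 in TMD8 and -0.36 in OCI-Ly10, each called within its line. The call in TMD8 was lost without its 18 h pair (adjusted p = 0.349) or its 24 h pair (adjusted p = 0.177). With all 15 pairs lower, ATF4 and TRIB3 each had an unadjusted p = 6.1e-05 in an exact sign-flip permutation test (two-sided), the smallest that 15 pairs allow. The test takes the 15 pairs as independent, though they are time points of only 4 lines. Every gene with all pairs below 0 gets this same p, which held for 4.04% of 12910 genes. Part of the ATF4 signal is uncertain, because the gene has 4 named pseudogenes with which reads could be shared.

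Each line was also tested on its own. In K422, 7 of 9 tested genes fell (background 24.0%) and SESN2 was higher (background 22.9%), CHAC1 being too low to test. In HT 5 of 10 fell (background 18.9%), in OCI-Ly10 5 of 10 (14.6%) and in TMD8 2 of 10 (1.23%), ATF4 and CHAC1. In these 3 lines no member was called higher (background 18.6% in HT, 14.5% in OCI-Ly10 and 2.36% in TMD8), with 0, 1 and 0 members higher at an unadjusted p under 0.05 in HT, OCI-Ly10 and TMD8, and DESeq2 called none either. Groups that did not overlap were seen for 5 genes in K422 (15.5% of 12910 genes had all AZD8186 libraries lower), for 3 in HT (8.96%), for 3 in TMD8 (9.39%) and for 2 in OCI-Ly10 (8.27%).

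Of the factors that act beside or after ATF4, ATF5 (chr19:49928702-49933935, plus strand) was at 137, 132, 190.4 and 181 CPM in K422 with AZD8186, against 241, 241, 301 and 254 CPM with DMSO. In HT it was at 178, 141, 165 and 155 CPM with AZD8186, against 251, 186, 215 and 190.0 CPM with DMSO. All AZD8186 libraries of these lines were below all their DMSO libraries, and the log2 fold change in GCB lines was -0.56 (SE 0.08, adjusted p = 6.42e-05, edgeR). In the ABC lines, where ATF5 is far more abundant, it was -0.10 (95% interval -0.26 to 0.07, adjusted p = 0.402), OCI-Ly10 being at 949, 839, 856 and 793 CPM with AZD8186 and at 964, 832, 853 and 853 CPM with DMSO. In TMD8, the line with the most ATF5, it was at 2817, 2389 and 1568 CPM with AZD8186, against 3332, 2548 and 1863 CPM with DMSO. All 3 TMD8 pairs were lower, though the groups overlapped and the log2 fold change of -0.20 (SE 0.11, adjusted p = 0.338) was not called. The exons of ATF5 share 626 bases with NUP62 and 75 with IL4I1 on the opposite strand, and no source used here states whether the counting used strand, so its reads cannot be told apart from theirs in these stretches.

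DDIT3 (chr12:57516588-57521737, minus strand) stayed low in all libraries. In K422 it was at 1.79, 2.50, 2.12 and 2.11 CPM with AZD8186, against 3.39, 2.85, 3.06 and 2.98 CPM with DMSO. In HT it was at 4.0, 3.0, 3.73 and 3.24 CPM with AZD8186, against 5.83, 5.55, 5.01 and 5.29 CPM with DMSO. Both lines showed no overlap, and DDIT3 fell by 0.59 on the log2 scale in GCB lines (SE 0.10, adjusted p = 0.000215, edgeR). In K422 alone the call (adjusted p = 0.0348) was lost whichever pair was left out, with adjusted p between 0.0535 and 0.117. In ABC lines the log2 fold change was 0.06 (SE 0.16, adjusted p = 0.80), with 4 of 7 pairs above 0. DDIT3 shares 355 exonic bases with MARS and 58 with MBD6 on the opposite strand.

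CEBPB (chr20:50190734-50192689, plus strand), a C/EBP factor that can dimerize with ATF4, fell by 0.29 in GCB lines on the log2 scale (SE 0.08, adjusted p = 0.00733, edgeR), with 7 of 8 pairs below 0. Its levels were 6.86 to 9.36 CPM with AZD8186 and 8.96 to 11.5 CPM with DMSO in K422, and 4.54 to 7.14 CPM with AZD8186 and 6.37 to 8.24 CPM with DMSO in HT. In ABC lines it had -0.20 (SE 0.10, adjusted p = 0.143), although in OCI-Ly10 every AZD8186 library (8.58 to 10.2 CPM) was below every DMSO library (10.4 to 12.8 CPM). CEBPB shares 231 of its 1956 exonic bases with CEBPB-AS1 on the opposite strand. CEBPG (chr19:33373330-33382686, plus strand), another C/EBP partner of ATF4, had the smallest spread of log2 ratios over the 15 pairs among the 10 genes (SD 0.12). In HT it was at 39.1, 42.1, 40.6 and 43.6 CPM with AZD8186 and at 39.3, 42.8, 41.0 and 44.3 CPM with DMSO. In OCI-Ly10 it was at 38.6, 33.5, 33.0 and 32.6 CPM with AZD8186 and at 43.1, 39.5, 41.0 and 38.0 CPM with DMSO. Its log2 fold change was -0.04 (SE 0.04, adjusted p = 0.401, edgeR) in GCB and -0.21 (SE 0.07, adjusted p = 0.0458) in ABC lines, and the ABC call was lost without the OCI-Ly10 12 h (adjusted p = 0.0921), OCI-Ly10 18 h (0.134) or TMD8 18 h pair (0.124).

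Among the genes that feed back on growth signaling, TRIB3 (chr20:362835-397559, plus strand) had the largest fall of the 9 genes tested in K422, whereas in HT the falls of DDIT4 (-0.66), DDIT3 (-0.65) and ATF5 (-0.41) were larger than its own (-0.38). In K422 it was at 52.5, 47.1, 62.6 and 69.3 CPM with AZD8186, against 139, 135, 129.6 and 128 CPM with DMSO. In HT it was at 37.9, 40.6, 47.3 and 51.7 CPM with AZD8186, against 50.9, 51.7, 61.4 and 64.5 CPM with DMSO. The K422 libraries with AZD8186 lay far below their own DMSO libraries, near the DMSO levels of HT, while in HT the lowest DMSO library met the highest AZD8186 library. In TMD8 TRIB3 was at 22.6, 28.4 and 24.7 CPM with AZD8186, against 42.6, 30.9 and 30.8 CPM with DMSO. In OCI-Ly10 it was at 34.6, 36.2, 37.3 and 36.5 CPM with AZD8186, against 43.3, 43.2, 48.0 and 46.5 CPM with DMSO. Neither ABC line had any overlap. The log2 fold change was -1.23 in K422, -0.38 in HT, -0.45 in TMD8 and -0.32 in OCI-Ly10, called in all but TMD8 (adjusted p = 0.154, edgeR), and it was -0.38 in ABC lines together (SE 0.08, adjusted p = 0.00423).

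DDIT4 (chr10:72273920-72276036, plus strand) had ratios on opposite sides of 0 in most pairs of the 2 subtypes. In K422 it was at 46.2, 48.6, 40.2 and 45.6 CPM with AZD8186, against 85.3, 81.1, 77.3 and 77.5 CPM with DMSO. In HT it was at 39.3, 40.1, 38.4 and 51.0 CPM with AZD8186, against 75.0, 58.9, 56.8 and 72.7 CPM with DMSO. Both lines were lower without overlap in all 8 pairs, and edgeR's fold change over them was -0.75 on the log2 scale (SE 0.07, adjusted p = 1.17e-06). In TMD8 DDIT4 was at 49.0, 31.6 and 30.6 CPM with AZD8186, against 36.8, 25.3 and 31.9 CPM with DMSO. In OCI-Ly10, the line with the least DDIT4, it was at 6.93, 4.64, 7.08 and 9.95 CPM with AZD8186, against 6.04, 4.43, 4.66 and 7.41 CPM with DMSO. Of the 7 ABC pairs 6 were above 0, but the groups overlapped and the log2 fold change of 0.29 (SE 0.12, adjusted p = 0.0857) was not called. It was called without the TMD8 24 h pair (0.36, adjusted p = 0.0218), the only ABC pair below 0, and with the pair of line and time as a block (0.27, adjusted p = 0.032). DDIT4 shares 847 of its 2058 exonic bases with DDIT4-AS1 on the opposite strand. DDIT4-AS1 is not among the 21112 genes counted, so without a stated strand setting its reads in that stretch could have been counted as DDIT4.

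SESN2 (chr1:28259527-28282491, plus strand) was the only gene of the 10 called higher in the GCB lines. In K422 it was at 23.0, 19.9, 21.3 and 26.7 CPM with AZD8186, against 20.7, 17.4, 16.8 and 17.9 CPM with DMSO. Each pair was higher with AZD8186, although the groups overlapped by 1 library, and K422 had 0.29 on the log2 scale (SE 0.09, adjusted p = 0.0287, edgeR). Over both GCB lines SESN2 rose by 0.20 (SE 0.07, adjusted p = 0.029) with 7 of 8 pairs above 0, but this call did not hold without the HT 18 h pair (adjusted p = 0.0603) or without any 1 of the K422 pairs at 6, 12, 18 or 24 h (0.052, 0.0605, 0.0767 and 0.0927). Within K422 it was lost without the 12 h (0.0632), 18 h (0.11) or 24 h pair (0.0837). In ABC lines SESN2 had -0.34 (SE 0.12, adjusted p = 0.0525) with 6 of 7 pairs below 0, and it was called without the TMD8 6 h pair (-0.42, adjusted p = 0.0104), the only ABC pair above 0, in which the AZD8186 library has the highest ribosomal RNA share. DESeq2 (adjusted p = 0.0368) and limma-voom (0.044) called it lower too, as did edgeR without a filter on low counts (0.0483) or without the 6 h libraries (0.00952). It was not called with the pair of line and time as a block, with ribosomal genes left out or with treatment as the only term.

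**Figure D3:**
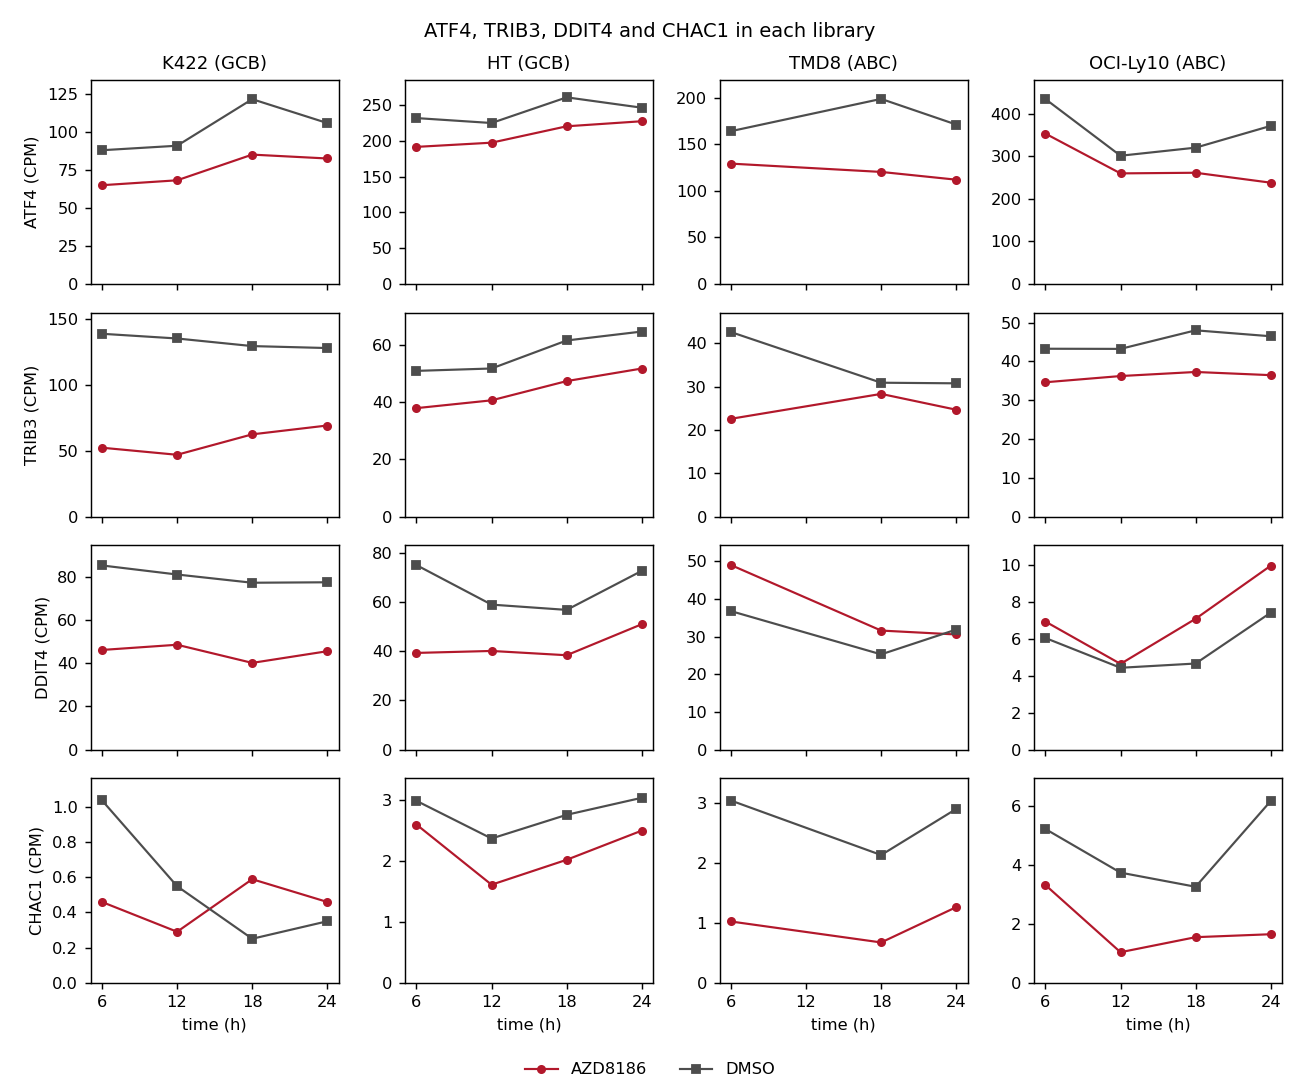
CPM (linear axes from 0) of ATF4, TRIB3, DDIT4 and CHAC1 against time in hours in K422, HT, TMD8 and OCI-Ly10, with AZD8186 libraries as red circles and DMSO libraries as grey squares, 1 library per point. DDIT4 is lower with AZD8186 throughout K422 and HT and not in OCI-Ly10, whereas CHAC1 is 1.03 to 3.31 CPM with AZD8186 and 3.25 to 6.16 CPM with DMSO in OCI-Ly10.

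Of the metabolic targets, ASNS (chr7:97852118-97872542, minus strand), which makes asparagine from aspartate and glutamine, was at 141, 88.8, 63.1 and 47.6 CPM in OCI-Ly10 with AZD8186 at 6, 12, 18 and 24 h, against 148, 111, 82.9 and 83.1 CPM with DMSO. In K422 it was at 124, 94.0, 81.0 and 80.3 CPM with AZD8186, against 127, 128, 114 and 120.0 CPM with DMSO. At 6 h the log2 ratio was between -0.07 and 0.08 in all 4 lines, and at 24 h it was -0.58 in K422, -0.22 in HT, -0.66 in TMD8 and -0.80 in OCI-Ly10. Over all times ASNS fell by 0.24 in GCB (SE 0.07, adjusted p = 0.00844, edgeR) and by 0.43 in ABC lines (SE 0.10, adjusted p = 0.00708) on the log2 scale. Within lines it was called in K422, where the call was lost without the 12 h (adjusted p = 0.066) or 18 h pair (0.0725), and in OCI-Ly10, with -0.10 (adjusted p = 0.16) in HT and -0.47 (adjusted p = 0.131) in TMD8. ASNS too has 4 named pseudogenes that could take some of its reads. It also shares 1985 of its 4455 exonic bases with AC079781.5 on the same strand.

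CHAC1 (chr15:40952962-40956519, plus strand) had the largest fall of the 10 in the ABC lines. In OCI-Ly10 it was at 3.31, 1.03, 1.54 and 1.64 CPM with AZD8186, against 5.21, 3.73, 3.25 and 6.16 CPM with DMSO. In TMD8 it was at 1.02, 0.67 and 1.26 CPM with AZD8186, against 3.04, 2.13 and 2.90 CPM with DMSO. The AZD8186 values rest on few counts, 52, 17, 22 and 25 in OCI-Ly10 and 15, 11 and 27 in TMD8. All 7 pairs were lower, and the log2 fold change of -1.36 (SE 0.18, adjusted p = 0.000158, edgeR) corresponds to a level of 0.389 of that in DMSO. In TMD8 alone the call was lost without the 18 h (adjusted p = 0.301) or 24 h pair (0.152). In HT CHAC1 was at 2.60, 1.61, 2.02 and 2.50 CPM with AZD8186, against 2.99, 2.37, 2.76 and 3.04 CPM with DMSO. All 4 HT pairs were lower as well, and the log2 fold change was -0.38 (SE 0.17, adjusted p = 0.0919). In K422 there were only 6 to 12 counts per library with AZD8186 and 6 to 23 with DMSO, so that a difference was not detectable at this depth. Over both GCB lines the value was -0.33 (SE 0.19, adjusted p = 0.159).

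These differences between subtypes were tested directly, as the interaction of treatment and subtype over all 30 libraries with the pair of line and time as a block. Of the 10 genes 6 differed (13.4% of 11286 genes did): 3 responses were lower in GCB than in ABC lines (background 6.08%) and 3 were higher (background 7.32%). DDIT4 differed most, with a log2 fold change lower by 1.01 in GCB than in ABC lines (SE 0.10, adjusted p = 6.28e-06, edgeR), the fifteenth smallest p of all genes. DDIT3 was lower by 0.65 (SE 0.17, adjusted p = 0.0177) and ATF5 by 0.45 (SE 0.09, adjusted p = 0.00229). The response of CHAC1 was higher by 1.05 (SE 0.27, adjusted p = 0.0149), that of SESN2 by 0.55 (SE 0.14, adjusted p = 0.0157) and that of CEBPG by 0.18 (SE 0.06, adjusted p = 0.0445). All but CEBPG held whichever pair was left out. The call on CEBPG was lost in 12 of 15 such fits, with adjusted p up to 0.0852, and was kept without the K422 24 h, OCI-Ly10 6 h or TMD8 24 h pair. CHAC1, though its call held, had only 6 to 23 counts per library in K422 and was too low to test within that line. Its ABC libraries with AZD8186 held only 11 to 52 counts. For ATF4 the difference was 0.13 (SE 0.09, adjusted p = 0.345) and for TRIB3 -0.42 (SE 0.18, adjusted p = 0.131).

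**Figure D4:**
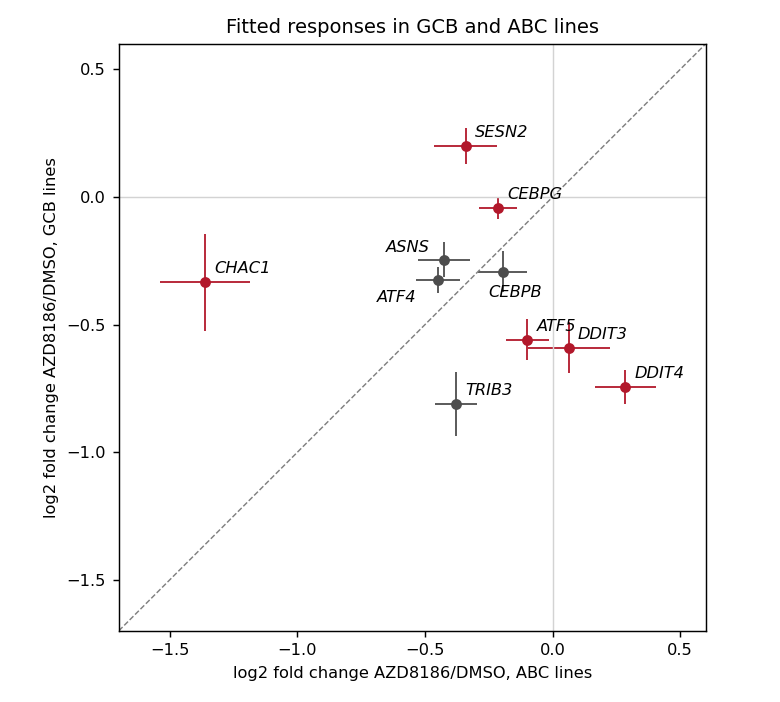
Fitted log2 fold change of AZD8186 over DMSO in GCB lines (vertical axis, 16 libraries) against that in ABC lines (horizontal axis, 14 libraries) for the 10 genes, with bars of 1 SE and a dashed line where both are equal. The 6 genes in red differ between the subtypes by the interaction test, from DDIT4 (-0.75 in GCB, 0.29 in ABC) to CHAC1 (-0.33 in GCB, -1.36 in ABC), and the 4 genes in grey do not pass it. CHAC1 was too low to test within K422, a GCB line.

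Within the GCB lines 3 genes responded more strongly in K422 than in HT (background 9.33% lower) and none less (7.30% higher, 0 members at an unadjusted p under 0.05, 0 by limma-voom). TRIB3 had a log2 fold change lower by 0.85 in K422 than in HT (SE 0.12, adjusted p = 0.00139, edgeR). ATF5 was lower by 0.32 (SE 0.09, adjusted p = 0.0273) and ATF4 by 0.23 (SE 0.07, adjusted p = 0.0412). Only TRIB3 kept its call whichever pair was left out. ATF4 lost it without any 1 of the pairs at 12, 18 or 24 h in either line (adjusted p of 0.0523 to 0.126), and ATF5 without any 1 of the HT pairs at 12, 18 or 24 h or the K422 pairs at 12 or 18 h (0.0611 to 0.106). DDIT4 and ASNS were called lower in K422 when the HT 6 h and the K422 6 h pair were left out in turn (-0.29, adjusted p = 0.0375, and -0.43, adjusted p = 0.00336). Between TMD8 and OCI-Ly10 no gene of the 10 was called by edgeR or limma-voom or reached an unadjusted p under 0.05, where 0.429% of 11419 genes were called. The interval of that difference was wide for CHAC1 (-0.87 to 0.63) and narrower for ATF4 (-0.47 to 0.05).

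Time was examined in 2 ways. The response at 18 and 24 h was compared with that at 6 and 12 h, and no gene was called in either subtype, among the 10 or among all genes (background 0%). At an unadjusted p under 0.05, 3 members were lower late in ABC lines and none in GCB lines, and limma-voom called none. The 3 were ASNS, SESN2 and ATF4, at ranks 97, 649 and 866 by p among 11419 genes. The share of all genes under that threshold was not computed, so nothing is read from this count. The ABC values furthest from 0 were -0.56 for SESN2 (SE 0.20, adjusted p = 0.281, edgeR) and -0.52 for ASNS (SE 0.12, adjusted p = 0.169), and in GCB lines ASNS had -0.26 (SE 0.14, adjusted p = 0.748). In the 15 DMSO libraries, 1 of the 10 genes changed with hours in culture (7.22% of 12596 genes did). ASNS fell by 0.41 per 18 h on the log2 scale (SE 0.09, adjusted p = 0.014), being lower at 24 h than at 6 h in each line, for example 83.1 CPM at 24 h against 148 CPM at 6 h in OCI-Ly10. Its call was lost without the OCI-Ly10 6 h (adjusted p = 0.0521), OCI-Ly10 24 h (0.0586) or TMD8 24 h library (0.0574). ATF4 had 0.10 over the same span (SE 0.10, adjusted p = 0.63).

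The genes around this programme moved as follows, and in every list the values are log2 fold changes from the same edgeR fits. Of the kinases and translation factors upstream of ATF4, 8 of 16 fell (background 23.5%) and 4 rose (25.9%) in GCB lines (median -0.15), and 3 of 15 fell (13.8%) and none rose (15.3%) in ABC lines (median -0.09), so that the share that rose in GCB and the share that fell in ABC lines were near the background. EIF2S1, which encodes eIF2α, fell in both (-0.59 in GCB, adjusted p = 5.26e-06, and -0.32 in ABC, adjusted p = 0.00209). EIF2AK3, the endoplasmic reticulum kinase PERK, rose by 1.17 in GCB lines (adjusted p = 1.19e-06) and had 0.22 in ABC lines (adjusted p = 0.213). The exchange factor subunit EIF2B1 fell by 0.45 in GCB lines (adjusted p = 2.82e-06) and had -0.11 in ABC lines (adjusted p = 0.323). EIF2S2, another eIF2 subunit, fell in both (-0.29 in GCB, adjusted p = 0.000212, and -0.16 in ABC, adjusted p = 0.0164). PPP1R15A, which directs the phosphatase that resets eIF2α, rose by 0.30 in GCB (adjusted p = 0.0193) and fell by 0.56 in ABC lines (adjusted p = 0.00219). By the interaction test, 4 of 16 responses were lower in GCB than in ABC lines (background 6.08%) and 2 were higher (7.32%). The 2 higher ones were EIF2AK3, by 0.97 (adjusted p = 0.00084), and PPP1R15A, by 0.88 (adjusted p = 0.000113).

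Of 48 other ATF4 targets, 22 of 40 tested fell (background 23.5%) and 8 rose (25.9%) in GCB lines (median -0.18), and 17 of 41 fell (13.8%) and 2 rose (15.3%) in ABC lines (median -0.15). The tyrosyl-tRNA synthetase YARS fell in both (-0.56 in GCB, adjusted p = 1.44e-06, and -0.35 in ABC, adjusted p = 0.00333), as did the tryptophanyl-tRNA synthetase WARS (-0.17 in GCB, adjusted p = 0.00298, and -0.97 in ABC, adjusted p = 0.000233). The cationic amino acid transporter SLC7A1 fell by 0.51 in GCB (adjusted p = 5.18e-05) and 0.66 in ABC lines (adjusted p = 0.000218). KLHL24, of the kelch-like family, rose in both subtypes, by 2.20 in GCB (adjusted p = 1.01e-06) and 1.02 in ABC lines (adjusted p = 0.00111). By the interaction test, 2 of 41 responses were lower in GCB than in ABC lines (background 6.08%) and 9 were higher (7.32%). Among them, that of the transporter SLC7A5 was lower by 0.76 (adjusted p = 0.00149), and that of WARS higher by 0.82 (adjusted p = 0.00107). Chaperones and sensors of the other arms of the unfolded protein response fell in GCB lines in 14 of 19 cases (background 23.5%) and rose in 1 (25.9%), with a median of -0.39. In ABC lines 5 of 19 fell (13.8%) and 2 rose (15.3%), with a median of -0.13. The response was lower in GCB than in ABC lines for 9 of these 19 genes (background 6.08%) and higher for 0 (7.32%). The chaperone HSPA5 (-0.90 in GCB, adjusted p = 1.82e-06, and -0.44 in ABC, adjusted p = 0.00453), its cofactor DNAJB11 (-0.53 in GCB, adjusted p = 3.37e-06, and -0.31 in ABC, adjusted p = 0.00618) and the disulfide isomerase PDIA6 (-0.49 in GCB, adjusted p = 1.69e-05, and -0.24 in ABC, adjusted p = 0.00363) fell in both. SDF2L1, another cofactor, had -0.64 in GCB (adjusted p = 7.02e-06) and -0.075 in ABC lines (adjusted p = 0.67). EDEM1, of endoplasmic reticulum degradation, had -0.037 in GCB (adjusted p = 0.802) and -0.45 in ABC lines (adjusted p = 0.00351). The stress sensor ERN1 had 0.17 in GCB (adjusted p = 0.484) and 1.09 in ABC lines (adjusted p = 0.000296).

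DDIT4 is also known as a hypoxia target, and DDIT4 and SESN2 as p53 targets. Of hypoxia targets, 3 of 9 fell (background 23.5%) and 3 rose (25.9%) in GCB lines, and 1 of 8 fell (13.8%) and 2 rose (15.3%) in ABC lines, where with so few genes nothing is read from the counts. VEGFA, the vascular growth factor, fell in both (-1.13 in GCB, adjusted p = 4.35e-05, and -0.52 in ABC, adjusted p = 0.00592), and the collagen prolyl hydroxylase P4HA1 fell by 0.46 in GCB lines (adjusted p = 2.72e-06) and was at -0.0046 in ABC lines (adjusted p = 0.972). The histone demethylase KDM3A rose in both (0.52 in GCB, adjusted p = 6.97e-05, and 0.35 in ABC, adjusted p = 0.00666), as did BNIP3L, a mitophagy receptor (0.61 in GCB, adjusted p = 0.000154, and 0.60 in ABC, adjusted p = 0.00832). Of p53 targets, 1 of 11 fell (background 23.5%) and 5 rose (25.9%) in GCB lines, and none of 12 fell (13.8%) and 3 rose (15.3%) in ABC lines. The ribonucleotide reductase subunit RRM2B rose by 0.69 in GCB (adjusted p = 4.26e-07) and 0.31 in ABC lines (adjusted p = 0.0158). TP53INP1 rose in both too (0.78 in GCB, adjusted p = 0.00522, and 1.06 in ABC, adjusted p = 0.027). TP53I3 had 0.91 in GCB (adjusted p = 8.62e-05) and 0.091 in ABC lines (adjusted p = 0.594), and the DNA repair factor XPC had 0.24 in GCB (adjusted p = 0.00183) and 0.14 in ABC lines (adjusted p = 0.0666). ZMAT3 had 0.15 in GCB (adjusted p = 0.117) and 0.40 in ABC lines (adjusted p = 0.00978).

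Of 10 close relatives of the 10 genes tested in GCB lines 2 fell (background 23.5%) and 3 rose (25.9%), and of 11 in ABC lines 2 fell (13.8%) and 1 rose (15.3%), shares near the background. CHAC2, the second enzyme of the CHAC family, fell in both subtypes (-0.40 in GCB, adjusted p = 0.00164, and -0.41 in ABC, adjusted p = 0.00409). The pseudokinase TRIB2 had -0.77 in GCB (adjusted p = 0.00011) and 0.26 in ABC lines (adjusted p = 0.31), and SESN3 had 0.71 in GCB (adjusted p = 1.59e-05) and 0.33 in ABC lines (adjusted p = 0.37). CEBPA, a C/EBP factor tested in ABC lines alone, fell there by 1.38 (adjusted p = 0.000172), and TRIB1 had -0.049 in GCB (adjusted p = 0.714) and 0.46 in ABC lines (adjusted p = 0.0123). Some genes stand in more than 1 list. ATF3 is in this list and among the other ATF4 targets, and SESN1 is in this list and among the p53 targets. VEGFA is among both the hypoxia targets and the other ATF4 targets.

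The ABC values moved with the scale used. Ribosomal protein genes took 21.4 to 25.8% of the counts in ABC libraries with AZD8186 and 17.5 to 23.2% in those with DMSO. On log2(TPM + 1) the median of all genes in ABC lines was -0.15 in place of 0.01, and 4279 genes were called lower and 620 higher in place of 1577 and 1750. On that scale 8 of the 10 genes were lower in ABC lines, with ATF5 (-0.30, adjusted p = 0.00843), SESN2 (-0.38, adjusted p = 0.0101) and CEBPB (-0.33, adjusted p = 0.00752) added, and DDIT4 was at 0.07 and DDIT3 at -0.10. With ribosomal RNA, MTRNR2L and ribosomal protein genes left out of the counts, 5 of the 10 genes were lower in ABC lines and 7 in GCB lines.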

How the data were processed

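Per the labels and the study's methods, total RNA was isolated and RNA sequencing was carried out. The mRNA reads were aligned to the human transcriptome with HISAT2 and summed per gene with RSEM. GRCh38.p12 is named as the build (no tool version or strand setting is stated). The authors deposited 1 table per library with RSEM expected counts, TPM and FPKM for 21112 genes. The expected counts were rounded to whole numbers for the tests, the deposited TPM values served for levels between genes and for alternatives, and the FPKM columns deposited by the authors were not used.

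Counts were fitted with edgeR 4.0.16 in R 4.3.3 (filterByExpr, TMM, quasi-likelihood F test, Benjamini-Hochberg adjustment over all genes tested, threshold 0.05), with cell line and time as factors within a subtype, time within a line, and the pair of line and time as a block in tests of differences between responses. Log2 ratios per pair used CPM with a prior count of 2. The scripts were tested on simulated data. DESeq2 1.42.0, limma 3.58.1 (voom and log2 TPM), other filters and scalings, and leaving out pairs were the alternatives. The 10 genes and all gene lists were chosen with earlier results of these data known. Named were all 10 genes, the 3 genes of each list with the smallest p in GCB and in ABC lines, and the 5 other genes at each end of likeness to them, of which 1, like 1 B-cell marker, is not reported here. Gene positions are those of GENCODE 29 (GRCh38), and promoter sequences are RefSeq's (GRCh38.p14). Depth, 15820230 to 23579029 counts per library, limits DDIT3 and CHAC1 most.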

Additional observations from a re-analysis of the deposited data

Results flagged for a closer look

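The response to AZD8186 differed between GCB and ABC lines for 6 of the 10 genes by the interaction test (background 13.4% of 11286 genes). The log2 differences (GCB minus ABC) were -1.01 for DDIT4, -0.65 for DDIT3, -0.45 for ATF5, 1.05 for CHAC1, 0.55 for SESN2 and 0.18 for CEBPG. The call on CEBPG was lost in most fits that left out 1 pair. CHAC1 was too low to test within K422. The response differed between K422 and HT for 3 of the 10 genes (background 9.33% lower and 7.30% higher in K422). The log2 differences (K422 minus HT) were -0.85 for TRIB3, -0.32 for ATF5 and -0.23 for ATF4, and only TRIB3 kept its call whichever pair was left out.

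Single values stood apart from the rest of their group by Dixon's test. ATF5 in the OCI-Ly10 DMSO library at 6 h was at 964.38 CPM, with the other 3 DMSO libraries of the line at 832 to 853 CPM. The TRIB3 log2 ratio of TMD8 at 6 h was -0.91, with the other 6 ABC pairs at -0.36 to -0.12. Among 50 groups checked, chance marks about 1 in 20.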

How the results depend on the processing

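Within the subtypes, the values of the 10 genes kept their direction under all alternatives except DDIT3 in ABC lines, which was not called and fell below 0 on TPM (-0.10 and -0.14) and without the OCI-Ly10 18 h pair (-0.014). DESeq2, its size factors, voom and counts without ribosomal RNA, MTRNR2L and ribosomal protein genes called the same number of the 10 genes in GCB lines, and in ABC lines 1 more, SESN2, was called by the first 3 of them. On log2(TPM + 1) and log2(TPM + 0.1), 8 of the 10 genes were lower in ABC lines and none was higher in GCB lines, and over all genes 4279 and 4238 were lower and 620 and 614 higher in ABC lines (1577 and 1750 in the counts). With treatment as the only term, none of the 10 was lower in ABC lines, 3 were lower and 0 higher in GCB lines, and over all genes 75 were lower and 97 higher in ABC and 770 lower and 622 higher in GCB lines. Without a filter on low counts 0 of the 10 were higher in GCB lines. DESeq2 called 1 gene lower in TMD8, and on log2(TPM + 1) 0 were higher in K422.

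With the pair of line and time as a replicate block, 1 gene, DDIT4, was called higher in ABC lines (0.27, adjusted p = 0.032), and no other call of the 10 genes changed. No source says that a pair shares a culture or day. The deviations of the 2 libraries of a pair from their group means correlated at -0.003 to 0.441, and 12 of 15 AZD8186 libraries correlated best with their own DMSO library.

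Leaving out 1 pair at a time, the number of the 10 genes called ranged from 0 to 1 higher in ABC, 0 to 1 higher in GCB, 0 to 4 lower in TMD8, 4 to 6 lower and 0 to 1 higher in K422, and 1 to 4 lower for K422 minus HT. Genes lower in ABC lines then numbered 970 (without the OCI-Ly10 18 h pair) to 1893 and genes higher 1124 (without the same pair) to 1965. In DMSO over time, 0 to 1 of the 10 genes was lower when 1 library was left out, 0 with 24 h against 6 h only, and on log2(TPM + 1) 0 were lower and 2, ATF4 and CEBPG, were higher.

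Between lines in DMSO, log2(TPM + 1) turned the direction of ASNS in OCI-Ly10 minus HT (-0.27), CEBPG in TMD8 minus HT (-0.071) and CEBPB in TMD8 minus K422 (-0.32), with 5 of the 10 genes lower in OCI-Ly10 than HT and 1 higher in TMD8 than HT. The cause was not tested. CHAC1 and DDIT3 rest on few counts in every line.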

Other observations

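The median log2 ratio of the 10 genes was below 0 in each of the 15 pairs, from -0.63 in K422 at 6 h to -0.16 in OCI-Ly10 at 12 h, with the median over all genes between -0.01 and 0.02. Across these pairs the genes whose ratios were most like that median were YARS (Pearson r = 0.915), RAE1 (0.894), NTMT1 (0.884), PUF60 (0.878) and ARHGDIA (0.872) among the 9560 genes that averaged 5 CPM or more. Among the most opposed were WAC (-0.895), MED13 (-0.866), NEPRO (-0.858) and RFX7 (-0.852). The 15 pairs come from 4 lines and share libraries and scaling with the median, so these values are a description.

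Among themselves, the ratios of ATF5 ran with those of DDIT4 (r = 0.855 over 15 pairs) and TRIB3 (0.84), and those of ATF4 with ASNS (0.729). DDIT4 and CEBPG ran against each other (-0.841). ATF4 mRNA had r = 0.263 with CHAC1. These values pool the pairs of all lines, so they include the differences between lines and subtypes given above. Whether the genes run together within a line was not tested.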
